A study of Mus musculus with 7 samples.

Results

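The 31 genes described here encode the core RNA polymerase I (Pol I) machinery and proteins that assemble ribosomes in the nucleolus. They were chosen by name: a gene is a member if a non-control probe on the array carries its symbol in the scanner files, and all 31 listed symbols were found. They make up 31 of 14893 genes tested. All 31 were well above background on all 7 arrays and had a value on each, so no member was lost to the filter on dim probes, and no member spot was saturated. The 31 are read by 50 probes, of which the brightest stands for its gene, and 14 members have more than 1 probe.

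RNA from mouse CD8 T cells of lymph node was measured on 1-colour microarrays. All samples were heterozygous for OT-1, a transgenic T cell receptor that recognises the ovalbumin peptide SIINFEKL, lacked Rag, and were cultured with 100 nM of that peptide for 24 h. Of the 7 samples, 4 were WT for Lck and 3 were Lck-/-, the kinase that starts signalling at the engaged T cell receptor; the series calls them biological replicates. The Lck-/- cells had carried a knocked-in Lck kept on by doxycycline in the diet, which had been withdrawn 7 days earlier. Doxycycline feeding of the WT mice, the promoter that drives the knocked-in Lck and the residual kinase in each sample are not given in the sources used here, so feeding and loss of Lck cannot be told apart. The comparison asks how the transcriptome of antigen-activated cells differs when Lck is removed.

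The nucleolus forms around the ribosomal RNA genes, which Pol I transcribes into a long precursor. Small nucleolar ribonucleoproteins (snoRNPs) guide the chemical modification of this precursor. Large assembly complexes then cleave and fold it into the small and large ribosomal subunits. Resting T cells have small nucleoli, and antigen receptor signalling enlarges them and raises ribosome production before the cells divide, with the transcription factor Myc as a main driver.

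Values are log2 of the processed spot signal minus the 75th percentile of the same array, so 0 is that percentile and 1 unit is a doubling. A difference is the mean of the arrays labelled Lck-/- minus the mean of those labelled WT, tested with limma and adjusted over all genes by Benjamini-Hochberg. Signals of different probes depend on the probe and are not set against each other. The number of arrays limits the precision. The RNA comes from many cells at once, so fewer cells of a type and less RNA per cell cannot be told apart.

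The signal for Lck itself went against the labels on 2 arrays. The Lck probe gave 7.44, 7.67, 7.36 and 6.04 for WT 1 to WT 4 and 8.02, 6.21 and 6.17 for Lck-/- 1 to Lck-/- 3. The array labelled WT 4 was thus among the low arrays and the array labelled Lck-/- 1 was the highest of all. Its difference was -0.32 (SE 0.55, limma adjusted p = 0.960). Which part of Lck the knockout removes, and whether this probe also reads the knocked-in copy, are not given in the sources used here, so the probe may check nothing. All directions are between arrays as labelled, and the main results are also given without both arrays.

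Each array had 46.6% to 61.1% of spots well above background. All 8 CD8 T cell markers, Cd3e and Cd8a among them, were well above background on all 7 arrays, with a summed linear signal of 419 to 664 on WT and 489 to 818 on Lck-/- arrays, in units of the 75th percentile. Of 10 NK cell markers, 4 were above background on all arrays (sum 0.974 to 7.53 on WT, 3.1 to 11.1 on Lck-/-), and all 10 had positive differences with a median of 1.00. Of 11 dendritic cell and macrophage markers, 7 were above background on all arrays (30.4 to 39.2 and 34.7 to 38.5) and Xcr1 on none. Of these, 10 were tested and 9 had positive differences, with a median of 0.50. At an unadjusted p below 0.05, 2 were higher on Lck-/- arrays, beside 4.94% of all genes. Of 6 B cell markers 3 were above background on all arrays (1.19 to 2.00 and 1.97 to 2.53), and Ms4a1 was on none; the 3 tested had positive differences with a median of 0.48. The 22 mitosis genes tested all had negative differences, with a median of -1.05. The part of these cell type and cell division signals in the differences below was not tested.

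Nucleolar and Pol I transcripts differed little between the groups. Over the 31 genes the median difference was 0.07 (quartiles -0.02 and 0.16), beside 0.04 over all genes tested. Of the 31, 20 had a positive difference (64.5%), beside 57.6% of all genes. The lowest difference was -0.26, for the Pol I initiation factor Rrn3, and the highest 0.70, for the ribosome-associated protein gene Pa2g4. With median centring in place of the 75th percentile, all genes moved down together: 7 of the 31 and 26.0% of all genes were then positive, with medians of -0.13 and -0.16. Of the 31, 17 were positive with quantile normalization, 15 with normexp followed by quantile normalization and 18 in the deposited values. The members' median stood 0.03 above that of all genes with the 75th percentile or the median as reference, 0.0054 above it with quantile normalization and 0.014 below it with normexp followed by quantile normalization. It stood 0.12 above it without both arrays whose Lck signal goes against their label (medians 0.17 and 0.05). It was -0.019, beside -0.0074 over all genes, without the array labelled WT 3.

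No member passed the threshold. At an adjusted p below 0.05 limma called 0 of the 31, as it called 0% of all genes, and the smallest adjusted p among the members was 0.607. At an unadjusted p below 0.05 there were 2 members higher on Lck-/- arrays, Pa2g4 and the small-subunit factor Nop14, where the share over all genes was 4.94%, and 0 lower, where it was 2.17%. The same 2 members were those whose groups did not overlap and were higher on Lck-/- arrays, beside 5.1% of all genes; 0 members were separated the other way, beside 2.14%. The share of 2 in 31 is near these backgrounds. Without both doubted arrays 58 of 14893 genes passed over the whole array and 0 of the 31 members did. At so small a share, 0 of 31 is near the background. In that setting 3 of the 31 had an unadjusted p below 0.05 and were higher on Lck-/- arrays, where the share over all genes was 6.12%. They were Pa2g4, Nop14 and the large-subunit factor Rrp1b. With all arrays, the same 3 had an unadjusted p below 0.05 with either quantile normalization and in the deposited values. The shares of all genes that were higher were there 3.89% to 4.08%.

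The differences were small and, for the labels as given, bounded. For 23 of the 31 genes the difference was below 0.2 in size and for 29 below 0.5. Small differences were usual on these arrays, with quartiles of -0.099 and 0.21 over all genes. The 95% intervals reached 0.32 to 0.64 to each side. They lay within a 2-fold change in either direction for 28 members and within a 1.5-fold change for 20. A larger change in these 20 transcripts was therefore outside the 95% interval with this scaling, the labels as given and the brightest probe. The misses of the threshold do not show that the levels are equal.

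**Figure D1:**
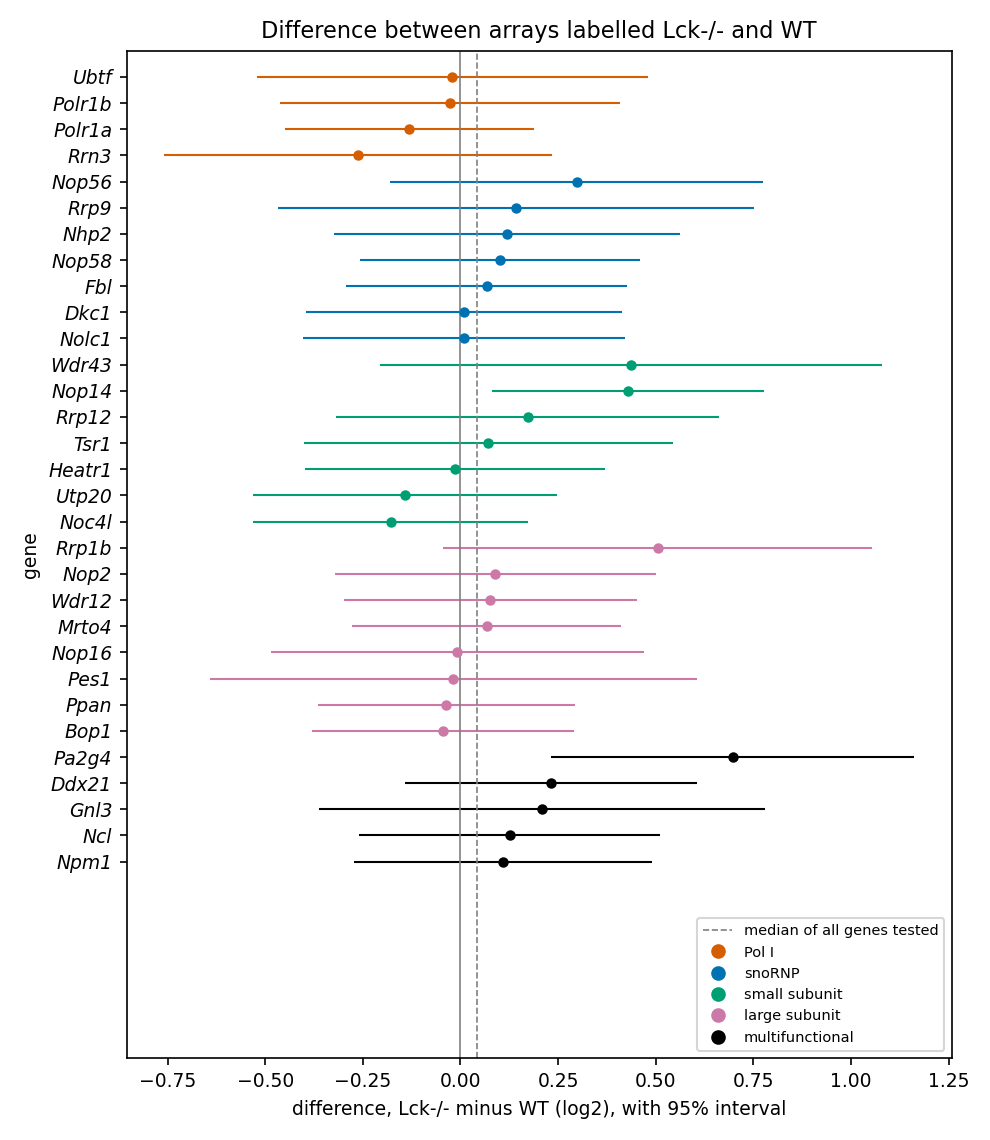
Difference between arrays labelled Lck-/- (n = 3) and WT (n = 4) for the 31 nucleolar genes, on the log2 scale, with limma 95% intervals; colours mark the role, and the dashed line is the median of all genes tested, 0.04. The intervals of Pa2g4 and Nop14 lie above 0 with 75th percentile scaling, and those of the other 29 genes include 0.

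All 4 members of the Pol I machinery itself had differences below 0, none past the threshold, also with quantile normalization, normexp followed by quantile normalization, median centring and in the deposited values. With the mean of a gene's probes 2 of the 4 were positive. Of the 4, 1 was positive with the title number or the slide row as a block, without both doubted arrays, and without any 1 of WT 1, WT 4 and the 3 Lck-/- arrays. Polr1a and Polr1b encode the large subunits that form the catalytic core of the enzyme. Polr1a read 4.76, 4.87, 4.62 and 4.74 on the WT arrays and 4.45, 4.75 and 4.66 on the Lck-/- arrays, a difference of -0.13. The groups overlap, and the array labelled Lck-/- 1 was the lowest. Polr1b read 4.36, 4.35, 4.01 and 4.54 on WT and 3.98, 4.51 and 4.38 on Lck-/-, a difference of -0.03. An upstream Polr1b probe (A_55_P2068306) gave 0.82 (SE 0.36, limma adjusted p = 0.726), so the mean of its probes was 0.40 and the sign for this gene depends on the probe.

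Rrn3 recruits Pol I to the ribosomal gene promoter in response to growth signals. It read 4.37, 4.43, 3.74 and 4.27 on WT and 3.73, 4.24 and 3.85 on Lck-/- arrays. The WT 3 value lay with the 2 low Lck-/- values, and the Lck-/- 2 value with the 3 high WT values. The difference was -0.26 (SE 0.21, limma adjusted p = 0.863), ranging from -0.47 to -0.13 over the 18 alternatives tried (adjusted p 0.719 to 1.00), and was -0.13 without both doubted arrays. Without WT 3 it was -0.42, with an unadjusted p below 0.05. Ubtf, which coats active ribosomal genes and keeps them open, read 7.88, 7.84, 7.82 and 7.62 on WT and 8.28, 7.42 and 7.61 on Lck-/-. The highest and the lowest of these 7 values were both on Lck-/- arrays, so its difference of -0.02 became -0.28 without the array labelled Lck-/- 1, 0.16 without Lck-/- 2 and 0.058 without Lck-/- 3.

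The other genes of Pol I transcription were also near 0. Of 12 listed, 11 were tested and 8 had a positive difference, with a median of 0.05 and a range of -0.12 to 0.39. Among other Pol I subunits the differences were 0.39 (SE 0.27) for Cd3eap, 0.12 for Polr1c, 0.11 for Znrd1, 0.04 for Twistnb, 0.03 for Polr1d, which lacked its Lck-/- 1 value, and -0.02 for Polr1e. Among the promoter selectivity factor genes they were 0.15 for Taf1a, 0.05 for Taf1c, 0.05 for Taf1d, -0.05 for Taf1b and -0.12 for Tbp. None had an unadjusted p below 0.05, and the termination factor gene Ttf1 did not enter the test.

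The 7 snoRNP genes all had differences above 0 with the 75th percentile as reference and all arrays, and none passed the threshold. Of the 7, 5 were positive with quantile normalization and 1 with median centring. With the 75th percentile, 3 were positive without WT 3 and 4 without Lck-/- 2, and 6 or 7 without any other single array. Fbl encodes the methyltransferase of the box C/D particles, with Nop56 and Nop58 as its scaffold and Rrp9 as the protein that marks the U3 particle. Nop56 read 7.78, 7.49, 7.99 and 7.85 on WT and 8.49, 7.82 and 7.91 on Lck-/- arrays. Only the array labelled Lck-/- 1 lay above the WT range. Its difference was 0.30 (SE 0.21, limma adjusted p = 0.828), and 0.089 without that array. Rrp9 read 4.51, 4.76, 4.07 and 5.11 on WT and 4.45, 5.05 and 4.76 on Lck-/- arrays, and its spread of 1.04 across arrays was far wider than its difference of 0.14. Nop58 and Fbl differed by 0.10 (SE 0.16) and 0.07 (SE 0.16), both with a negative sign under median centring.

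Dkc1, the pseudouridine synthase of the box H/ACA particles, and Nolc1, a chaperone of both particle classes, each differed by 0.01 or less (0.0091 and 0.0084). Nhp2, a structural protein of the H/ACA particle, read 8.05, 8.19, 8.21 and 8.17 on WT and 8.72, 8.09 and 8.02 on Lck-/-. The array labelled Lck-/- 1 was again the one that stood above the rest. The Nhp2 difference was 0.12, and -0.10 without that array.

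Small-subunit factors held the other member with separated groups. Nop14, a component of the large processome that forms the small subunit, read 3.23, 2.85, 2.97 and 3.22 on WT (3.07 ± 0.19, SD, n = 4) and 3.42, 3.46 and 3.61 on Lck-/- (3.50 ± 0.10, SD, n = 3). Every Lck-/- array lay above every WT array. The difference was 0.43 (SE 0.15, 1.35-fold, limma adjusted p = 0.652), positive in all 18 alternatives at 0.22 to 0.52 (adjusted p 0.421 to 0.999). Nop14 has 1 probe, well above background on all 7 arrays, so the background filters and probe choices could not change its difference. A block for title number gave the same 0.48 as leaving out WT 4. The Nop14 difference was 0.60 within the first row of the slide, with 2 arrays a group, and 0.24 within the second, with 2 WT arrays and 1 Lck-/- array. Its binding partner Noc4l read 5.16, 4.90, 5.01 and 5.03 on WT and 4.83, 5.08 and 4.64 on Lck-/- arrays, and differed by -0.18.

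Wdr43 and Heatr1 belong to the early subcomplex that couples processing to Pol I transcription. Wdr43 read 5.59, 5.23, 5.62 and 5.78 on WT and 6.67, 5.74 and 5.56 on Lck-/- arrays. Only Lck-/- 1 lay above the WT range, so the difference of 0.44 (SE 0.28, limma adjusted p = 0.806), the largest among small-subunit factors, was 0.099 without that array. Heatr1 read 6.43, 6.73, 6.16 and 6.48 on WT and 6.55, 6.45 and 6.30 on Lck-/-, a difference of -0.015. Rrp12, which helps to export pre-ribosomal particles, differed by 0.17, Tsr1, a late maturation factor, by 0.07, and Utp20, a processome component, by -0.14. The 4 of 7 positive differences of this role became 2 of 7 with median centring.

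Large-subunit factors were split evenly, 4 positive and 4 negative, while 1 of 8 was positive with median centring and 7 of 8 without both doubted arrays. Pes1, Bop1 and Wdr12 form the PeBoW complex needed to process the large-subunit RNA. Pes1 read 2.54, 3.13, 2.48 and 3.25 on WT and 2.36, 3.06 and 3.06 on Lck-/-, with a difference of -0.02. Each group held low and high Pes1 values. Bop1 differed by -0.05 and Wdr12 by 0.08. The remaining factors Nop2, an RNA methyltransferase, Mrto4, which holds the place of the stalk protein, Nop16 and Ppan differed by 0.09, 0.07, -0.01 and -0.04.

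Rrp1b, a nucleolar protein of the pre-large-subunit particles, had the largest difference of this role. It read 2.60, 2.67, 2.25 and 3.15 on WT (2.67 ± 0.37, SD, n = 4) and 2.99, 3.51 and 3.02 on Lck-/- (3.17 ± 0.29, SD, n = 3). All 3 Lck-/- values lay above 3 of the 4 WT values, and WT 4, whose Lck signal goes against its label, lay among them. The difference was 0.51 (SE 0.24, limma adjusted p = 0.721), 0.66 without WT 4 and 0.34 without Lck-/- 2. Over the alternatives it ran from 0.30 to 0.76 (adjusted p 0.306 to 1.00).

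The 5 multifunctional nucleolar proteins all had differences above 0, 3 of 5 with median centring. Pa2g4, also called Ebp1, binds ribosomes and takes part in growth control. It read 5.26, 5.07, 4.76 and 5.37 on WT (5.11 ± 0.27, SD, n = 4) and 5.97, 5.97 and 5.49 on Lck-/- (5.81 ± 0.27, SD, n = 3). Every Lck-/- array lay above every WT array. The difference was 0.70 (SE 0.20, 1.62-fold, 95% interval 0.23 to 1.16), which did not pass over all genes (limma adjusted p = 0.607; 0.223 to 0.999 over the alternatives). It was 0.70 without both doubted arrays, and 0.82 and 0.65 within the first and second rows of the slide. It rests on the probe that was used: the other Pa2g4 probes gave -0.20 (SE 0.23) and -0.03 (SE 0.26). Those probes were dimmer, with WT means of 1.36 and -0.95, though well above background on all 7 arrays.

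Ncl and Npm1 encode abundant nucleolar proteins that bind and chaperone ribosomal RNA and proteins. Ncl read 8.62, 8.09, 8.32 and 8.50 on WT and 8.65, 8.49 and 8.38 on Lck-/-, a difference of 0.13. Npm1 read 9.10, 9.01, 8.68 and 9.02 on WT and 9.29, 9.004 and 8.89 on Lck-/-, a difference of 0.11. For both, the highest array was Lck-/- 1 and the groups overlap. Gnl3, the nucleolar GTPase also called nucleostemin, read 4.77, 3.78, 4.24 and 4.69 on WT and 4.51, 4.65 and 4.57 on Lck-/-. All 3 Lck-/- values of Gnl3 fell inside the WT range, with a difference of 0.21 (SE 0.25). The RNA helicase gene Ddx21, which acts in Pol I transcription and processing, differed by 0.23, with values of 5.97 to 6.41 on WT and 6.24 to 6.52 on Lck-/- arrays.

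**Figure D2:**
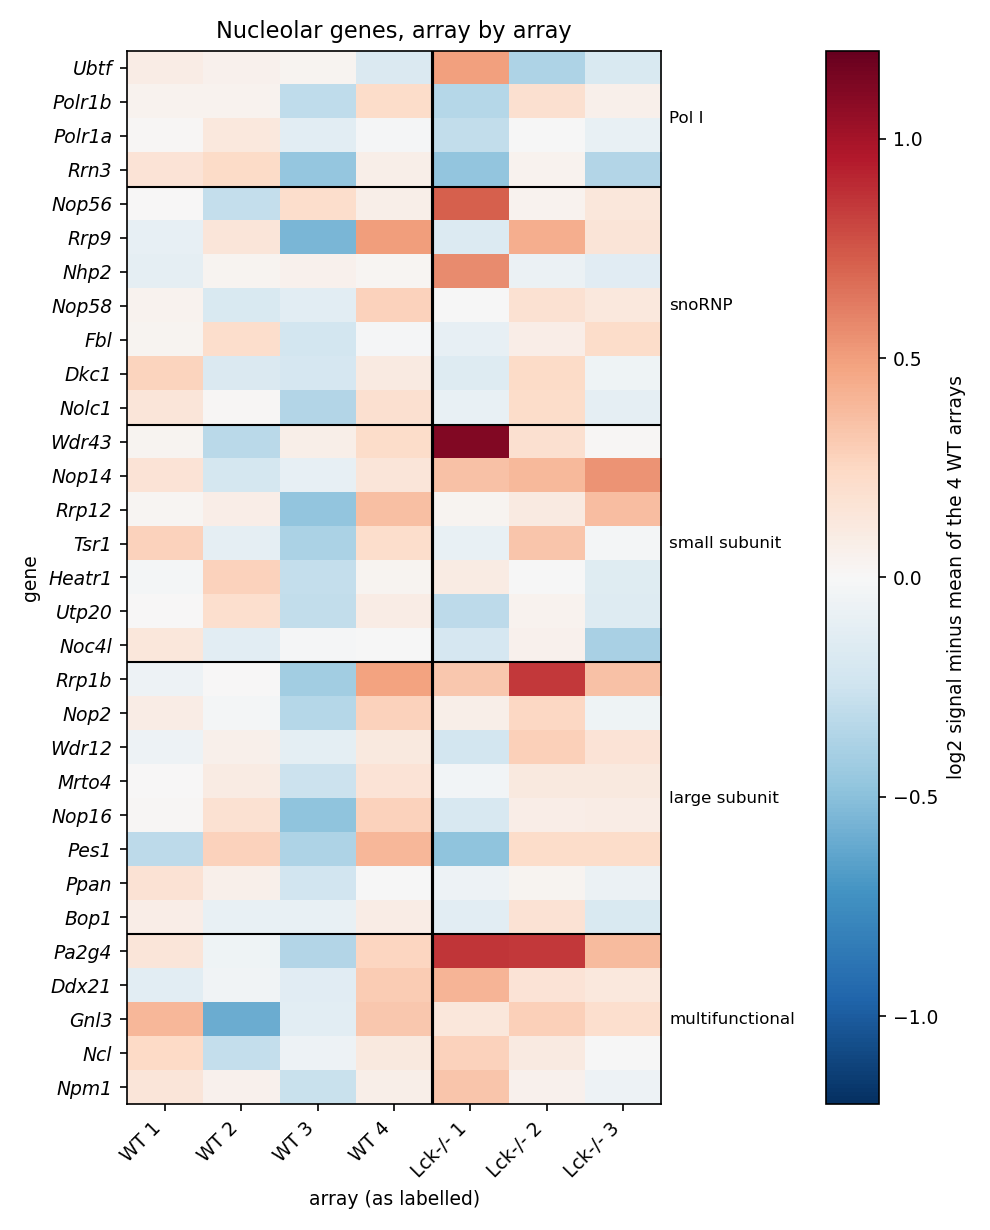
Log2 signal of each of the 31 genes on each array minus the gene's mean over the 4 WT arrays, in colour, with rows grouped by role and the vertical line between groups. The array labelled WT 3 is the lowest of the 7 for 15 genes, while the array labelled Lck-/- 1 is the highest for 8 and the lowest for 6.

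Much of the spread of the 31 genes lay between arrays of the same group. Relative to the WT mean, the mean over the members was 0.06, -0.01, -0.22 and 0.17 on WT 1 to WT 4 and 0.08, 0.18 and 0.04 on Lck-/- 1 to Lck-/- 3. The WT arrays alone thus spanned more than the Lck-/- arrays, with all 3 Lck-/- values inside the WT range or just above it. WT 3 had the lowest value of the 7 arrays in 15 of 31 genes and WT 4 the highest in 7. On WT 3, 1403 spots were marked as non-uniform, against 1 to 422 on the other arrays; the part of this in its low values was not tested. The 99 other ribosome assembly genes followed nearly the same course except on Lck-/- 1. They stood at 0.05, -0.04, -0.20 and 0.19 on WT and -0.04, 0.19 and 0.05 on Lck-/- arrays. Over all genes tested the means were 0.03, 0.01, -0.10 and 0.05 on WT and 0.12, 0.08 and 0.01 on Lck-/- arrays, so WT 3 was the lowest there too.

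Neighbouring parts of the ribosome programme likewise had median differences close to 0. The 99 other assembly genes had a median difference of 0.02, with 61 positive and a range of -0.19 to 0.69. At an unadjusted p below 0.05, 1 was higher and 0 were lower, beside 4.94% and 2.17% of all genes. That gene, Nufip1, a snoRNP assembly factor, differed by 0.36 (SE 0.15). Groups did not overlap and were higher on Lck-/- arrays for 2 of the 99, beside 5.1% of all genes. These were Nufip1 and Fcf1, which lacked its WT 3 value. The 76 cytosolic ribosomal protein genes had a median of 0.07 with 67 positive, but 31 were positive with quantile normalization, 29 in the deposited values, 11 with median centring and 39 without Lck-/- 1. Their differences ran from -0.87 to 0.52, and none of the 76 had an unadjusted p below 0.05. For 6 of the 76 the groups did not overlap and were higher on Lck-/- arrays, beside 5.1% of all genes. The other way there were 0, beside 2.14%. Myc read 5.16, 5.10, 4.92 and 5.52 on WT and 5.11, 5.55 and 5.52 on Lck-/- arrays, a difference of 0.22 (SE 0.19, limma adjusted p = 0.874), and the groups overlap.

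Mitosis genes had larger differences on the same arrays. Of the 22 tested, 16 had an unadjusted p below 0.05 and were lower on Lck-/- arrays, beside 2.17% of all genes. Of the 22, 0 passed over all genes, and their differences ran from -1.88 to -0.61. The proliferation marker Mki67 read 6.19, 4.54, 5.65 and 4.50 on WT and 4.68, 3.35 and 3.28 on Lck-/- arrays. The Mki67 difference was -1.45 (SE 0.51, limma adjusted p = 0.652). The members did not follow that order. On WT 1, the array highest in mitosis genes (0.86 above the WT mean), the nucleolar mean was 0.06. On Lck-/- 2 and Lck-/- 3, at -1.41 and -1.46 for mitosis, it was 0.18 and 0.04. WT 2, WT 3, WT 4 and Lck-/- 1 stood at -0.60, 0.43, -0.67 and -0.52 for mitosis. Their nucleolar means were -0.01, -0.22, 0.17 and 0.08. A relation between these lists was not tested.

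**Figure D3:**
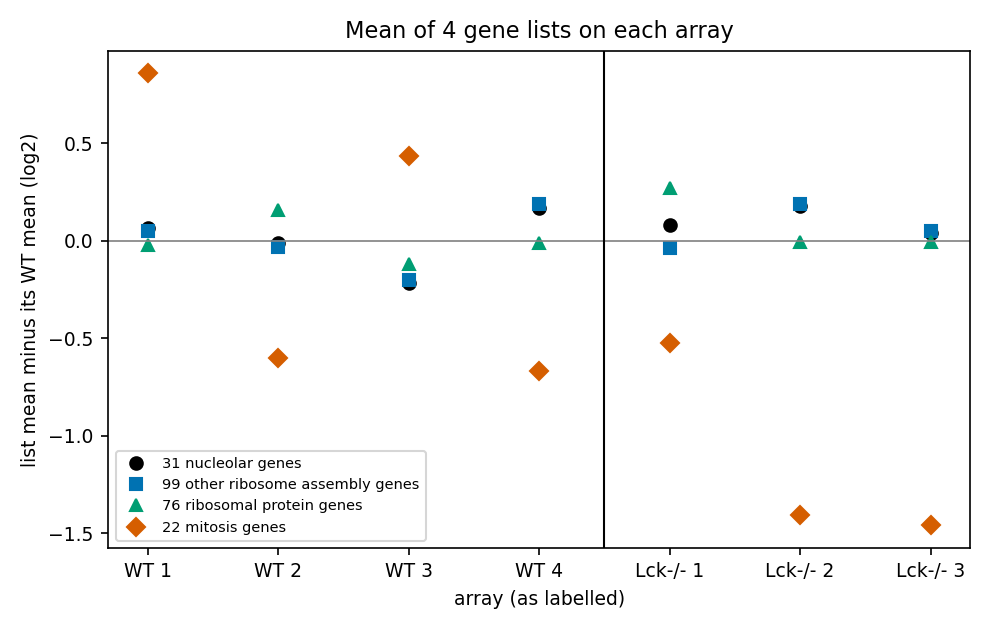
Mean of 4 gene lists on each array minus the list's mean over the 4 WT arrays, log2 scale, with the vertical line between WT and Lck-/- arrays. The nucleolar genes (circles) and other ribosome assembly genes (squares) stay between -0.22 and 0.19 on all 7 arrays, where the mitosis genes (diamonds) run from -1.46 to 0.86.

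Members with several probes did not always give the same answer, so the probes are shown where this matters. The sequences are those of the array design in the scanner files, 60 bases each, written 5′ to 3′, with coordinates on mm9. The Pa2g4 probe behind the reported difference (chr10:127997151-127997210, minus strand), the Nop14 probe (chr5:34986699-34987391, minus strand) and the most upstream Nop56 probe (chr2:130102854-130103256, plus strand) are shown because their values part the groups without overlap. Which exon each lies in was not analysed here.
Pa2g4 A_55_P2117146: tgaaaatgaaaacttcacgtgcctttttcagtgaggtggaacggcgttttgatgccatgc
Nop14 A_51_P246705: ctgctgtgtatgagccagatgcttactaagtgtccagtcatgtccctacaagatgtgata
Nop56 A_51_P187901: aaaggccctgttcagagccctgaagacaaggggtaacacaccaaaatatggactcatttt

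The upstream Nop56 probe read 5.83, 5.55, 5.64 and 6.03 on WT and 7.04, 6.14 and 6.11 on Lck-/- arrays. Its groups do not overlap, though Lck-/- 2 and Lck-/- 3 lay close to WT 4, and Lck-/- 1 stood well above the rest. The difference was 0.67 (SE 0.26, limma adjusted p = 0.699 over 29323 probes), against 0.32 and 0.30 for the downstream Nop56 probes. For Ncl the probe used gave 0.13 (WT mean 8.38) and the downstream probe -0.27 (WT mean 2.33). For Ddx21 these differences were 0.23 and -0.06, and for Wdr43 0.44 and 0.03.

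Npm1 was read by 5 probes, with differences of 0.04 to 0.43 and adjusted p from 0.830 to 0.979. A pair of them overlaps by 43 bases and differs within that overlap at 1 position, T45A, counted from the 5′ end of the first probe; capitals mark the differing base. They lie at chr11:33056689-33056991 and chr11:33056672-33056731 on the minus strand of mm9.
Npm1 A_55_P1954965: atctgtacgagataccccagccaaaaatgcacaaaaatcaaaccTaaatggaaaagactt
Npm1 A_55_P2110718: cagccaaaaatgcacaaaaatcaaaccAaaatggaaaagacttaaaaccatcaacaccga

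The first of this pair read 8.65, 8.63, 8.35 and 8.57 on WT and 8.90, 8.43 and 8.52 on Lck-/- arrays. The other read 6.26, 6.06, 6.14 and 6.20 on WT and 7.38, 6.29 and 6.12 on Lck-/-. Both are highest on Lck-/- 1, the second by a much wider margin over its own WT values than the first. Near-identical copies of abundant genes such as Npm1 exist in the genome, and which of them each probe reads was not analysed here.

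**Figure D4:**
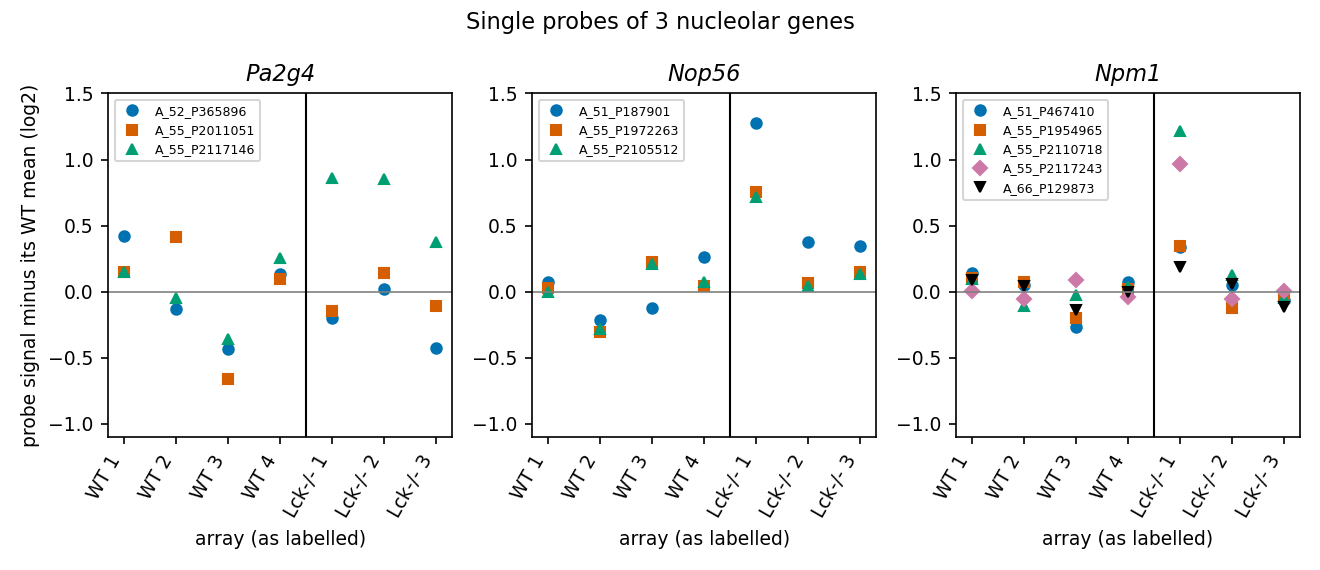
Signal of each probe of Pa2g4, Nop56 and Npm1 on each array minus that probe's mean over the 4 WT arrays, log2 scale. Of the 3 Pa2g4 probes only A_55_P2117146 is higher on all Lck-/- arrays than on all WT arrays, and on the array labelled Lck-/- 1 all 3 Nop56 and all 5 Npm1 probes are at their highest.

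By the median over members, these disagreements were most marked on the array labelled Lck-/- 1. For the 12 members with probes at least 100 bases apart, the most upstream probe was set against the most downstream one on each array, relative to the same quantity in WT; this view was chosen after the values were seen and carries no test. On Lck-/- 1 the upstream probe was relatively higher in 10 of 12 members, beside 62.6% of all genes with such probes, with a median of 0.54. By count it did not stand out: 11 of 12 were higher on Lck-/- 3 (beside 63.9%) and 9 of 12 on WT 4 (beside 63.7%). On the other arrays the medians were -0.09, 0.01, 0.10 and 0.10 for WT and 0.10 and 0.19 for Lck-/- 2 and Lck-/- 3. Over 3821 genes with such probes the median was 0.10 on Lck-/- 1 and between -0.06 and 0.10 on the other arrays. The widest values on Lck-/- 1 were 1.31 for Polr1b, whose upstream probe is dim, 1.31 for Wdr43 and 1.00 for Pa2g4, and Ubtf went the other way at -0.53. The downstream Pa2g4 probe is dim too, with a WT mean of -0.95.

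**Figure D5:**
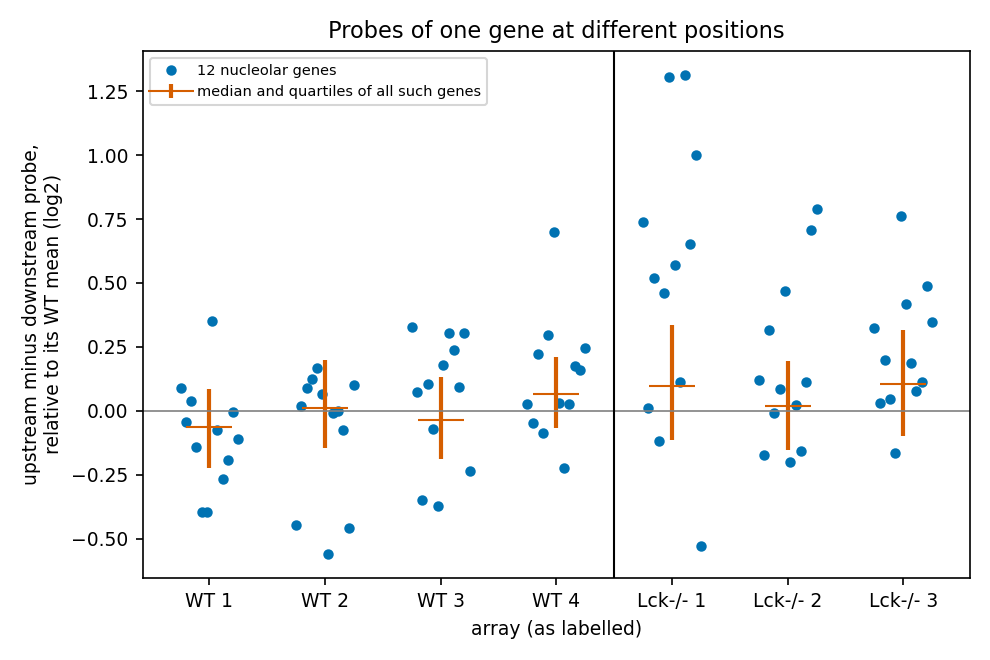
For the 12 nucleolar genes with probes at least 100 bases apart, the log2 signal of the most upstream probe minus that of the most downstream probe on each array, relative to the gene's WT mean (points), with the median and quartiles over 3821 genes (horizontal and vertical bars). On Lck-/- 1 the 12 genes have a median of 0.54, where the median of all such genes is 0.10.

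The start regions of the members were read for the E-box CACGTG, the letters that Myc and Max bind and that are the same on both strands. RefSeq windows of assembly GRCm38.p6, from 250 bases before to 50 after the start, were found for 27 of the 31 genes, and those of Bop1, Fbl, Npm1 and Rrp12 were not used here. Of the 27 genes, 6 held the motif (22.2%), beside 2187 of 27025 genes (8.09%), 16 of 79 other assembly genes (20.3%) and 6 of 55 ribosomal protein genes (10.9%). A gene counted if any of its windows held the motif, and the 27025 include genes that were not tested here. Window by window the shares were 6 of 35 for the members (17.1%) and 2349 of 32851 for all (7.15%). The 6 member genes were Rrn3, Nop2, Utp20, Pes1, Tsr1 and Wdr43. Rrn3, the member with the lowest difference, held it 2 times, starting 215 and 48 bases before the start, and Nop2 held it 60 bases before. Their 250 bases before the start are chr16:13780449-13780698 and chr6:125131633-125131882, both on the plus strand, with the motif in capitals.
Rrn3 promoter: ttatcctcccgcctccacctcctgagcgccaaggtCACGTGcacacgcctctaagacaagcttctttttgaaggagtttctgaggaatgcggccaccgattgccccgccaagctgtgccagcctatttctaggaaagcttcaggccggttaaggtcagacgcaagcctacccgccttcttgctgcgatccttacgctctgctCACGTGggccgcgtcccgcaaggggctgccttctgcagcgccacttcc
Nop2 promoter: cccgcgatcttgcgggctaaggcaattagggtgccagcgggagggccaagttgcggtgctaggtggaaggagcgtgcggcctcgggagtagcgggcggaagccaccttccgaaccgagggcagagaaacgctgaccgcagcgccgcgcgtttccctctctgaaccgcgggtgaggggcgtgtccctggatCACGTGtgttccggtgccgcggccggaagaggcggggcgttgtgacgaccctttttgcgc

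In the other 4 the motif lay just after the start, and the bases around it show how its flanks vary. The windows are chr10:88826765-88826789 on the minus strand for Utp20, and chr11:3963965-3963994, chr11:74898092-74898121 and chr17:71616220-71616249 on the plus strand for Pes1, Tsr1 and Wdr43.
Utp20 window: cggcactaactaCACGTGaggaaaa
Pes1 window: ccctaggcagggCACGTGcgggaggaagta
Tsr1 window: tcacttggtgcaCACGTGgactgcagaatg
Wdr43 window: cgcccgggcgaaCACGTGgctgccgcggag

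The motif began 37, 2, 24 and 17 bases after the start in these genes. The 6 genes that hold it had differences of -0.26 for Rrn3, 0.09 for Nop2, -0.14 for Utp20, -0.02 for Pes1, 0.07 for Tsr1 and 0.44 for Wdr43, so they lie on both sides of 0 and include the lowest of the 31. A match of letters is not shown to be a bound site, and binding was not measured.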

How the data were processed

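Spot intensity was read from the deposited scanner files of 7 arrays (62976 features, 55681 non-control probes), made with Agilent Feature Extraction 10.7.3.1 per the file headers. The deposited value table of the authors is on a log2 scale (correlation 0.9994 to 0.9998 with log2 of median spot signal), and how it was normalized between arrays is unknown here. Submitters' processing notes name limma.

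From the processed signal, log2 values minus each array's 75th percentile were computed, without spots flagged as outliers. A probe entered when well above background on at least 3 arrays. Probes were named by accession, symbol or synonym in RefSeq's gene table of GRCm38.p6, used for names only, or by the files (33184 probes named, 22497 not). The brightest probe stood for a gene. All 7 arrays were fitted with limma 3.58.1 under R 4.3.3 with no covariate (moderated two-sided tests from lmFit and eBayes; Benjamini-Hochberg over 14893 genes, 701 of them lacking a value). The procedure was tested on simulated data.

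The members and lists were chosen with earlier results of these data known. Every member is named. Full statistics go to members at an unadjusted p below 0.05 or with separated groups, and to the largest difference of each role. The single-probe statistics, Nufip1, Fcf1 and the most downstream probe as an alternative were chosen after values were seen. The groups come from the sample titles. The other alternatives were quantile normalization, normexp (offset 50) followed by quantile normalization, median centring, deposited values, stricter and no background filtering, averaged probes per gene, a block for title number or slide row, and leaving out arrays.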

Additional observations from a re-analysis of the deposited data

How the results depend on the processing

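Over 18 alternatives, 0 members passed an adjusted p of 0.05 in any. Of 558 values of single members, 537 moved by less than the gene's replicate SD, some of them across 0. Of the rest, 11 moved further with the same sign and 10 moved further and turned sign. Part of the 537 could not move. Both changes of the background filter left every member's value as it was, and the probe alternatives could not change members with a single probe. The block for title number gave nearly every member the same value as leaving out the WT array that has no partner. The 537 therefore overstates how stable the values were. With median centring the members' median was -0.134, 0 members had an unadjusted p below 0.05, and 13 members turned negative, 6 of them by more than the replicate SD: Ncl (-0.079), Npm1 (-0.096), Fbl (-0.14), Nop58 (-0.10), Wdr12 (-0.13) and Mrto4 (-0.14); that scaling moves every gene with 7 values by the same amount. The count at an unadjusted p below 0.05 was 3 with either quantile normalization, the deposited values or the slide row as a block. In these settings Rrp1b joined Pa2g4 and Nop14, where 3.89% to 6.24% of all genes were higher. With the mean of a gene's probes, 1 member had an unadjusted p below 0.05 and Polr1b turned to 0.40, through its dim upstream probe. With the most downstream probe, an alternative chosen after seeing the data, the count was also 1, and 5 members turned negative, 3 of them by more than the replicate SD: Ncl (-0.27), Ddx21 (-0.061) and Pa2g4 (-0.035).

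Leaving out each array in turn gave 1 to 3 members at an unadjusted p below 0.05 (1 without WT 2 and 1 without Lck-/- 3), a members' median of -0.019 to 0.117, and 0 to 1 genes called over the array (1 without WT 1). Without both arrays whose Lck signal goes against their label, 58 of 14893 genes were called, none of them among the 31 members. Same-numbered arrays did not deviate together (correlations of 0.0999, 0.0604 and -0.029). The replicate block, in which WT 4 has no partner, gave 1 called gene over the array, 0 members and a members' median of 0.12.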
